A study of Homo sapiens with 6 samples.

Results

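The genes described are 10 members of the S100 family of calcium-binding proteins, S100A2, S100A4, S100A6, S100A7, S100A8, S100A9, S100A10, S100A11, S100A14 and S100A16. They were taken by name, with every array probe annotated to them, which gave 12 of the 48799 probes with values and 10 of 18852 genes with a named probe. Expression was measured in RWPE-1 cells, a human prostate epithelial line that is immortalised but not tumorigenic, 72 h after transfection with 100 nM of an oligomer. LNA-205 is a locked nucleic acid, a chemically stiffened antisense oligonucleotide, directed against the microRNA miR-205, and was given to 3 samples, replicates D, E and F. LNA-Scr is a scrambled oligomer and was given to 3 control samples, replicates A, B and C. Both groups are thus transfected cultures of 1 cell line, and no untransfected sample enters the comparison. The transfections were made in triplicate, and nothing used here says whether the triplicates were separate cultures, so p-values measure the spread between these samples, which may be technical.

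The mature microRNA that LNA-205 is directed against is shown with its seed, the stretch that pairs with target transcripts. S100 transcripts were not searched for matches to this seed. The microRNA is given from RefSeq (GRCh38.p14, chr1:209432166-209432187, + strand), with the seed, bases 2 to 8, in capitals.
miR-205-5p: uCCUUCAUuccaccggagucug

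S100 proteins are small EF-hand proteins that change shape when calcium binds and then dock onto partner proteins. Most work inside the cell as dimers, on annexins, the cytoskeleton and cell cycle regulators. S100A7 (psoriasin), S100A8 and S100A9 are also secreted, act as antimicrobial alarmins, and are known for their induction in stressed or differentiating stratified epithelium. Most of the genes lie in a cluster on chromosome 1, beside the genes of the cornified envelope. In the RefSeq order of protein-coding genes S100A9, S100A8 and S100A7 lie next to each other except for S100A12, between the first pair, and S100A7A, between the second pair.

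A single-colour Illumina bead array was read for each sample. Between 12585 and 14195 probes per array were above background at a detection p under 0.01, and the lowest and highest of these counts both came from LNA-Scr arrays. Basal epithelial markers were measured for 5 of 7 genes, among them KRT5, KRT14, ITGA6 and ITGB4, while KLK3, KLK2, TMPRSS2 and ACP3 of the 8 luminal prostate markers were not above background on any array. All 12 S100 probes passed the detection filter, and the brightest probe of each of the 10 genes was above background on all 6 arrays. Values below are normalized log2 intensities unless an unnormalized intensity is named, and a log2 difference is LNA-205 minus LNA-Scr. Because hybridisation differs from probe to probe, levels are compared between arrays and not between genes. In cultures of mixed cell states, a change in the number of cells making a transcript and a change in transcript per cell cannot be told apart.

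The alarmins S100A7, S100A8 and S100A9 separated the groups, with all LNA-205 arrays above all LNA-Scr arrays, while 6 of the 7 other members overlapped between the groups. S100A4, listed with the constitutive members, was the exception and differed about as far as the alarmins. None of the 10 genes passed the limma test at an adjusted p under 0.05 over 10803 features, where 1 feature (0.00926%) was called in all, 0 in the higher direction (0%). At an unadjusted limma p under 0.05, 4 of the 10 members were higher and 0 lower, beside 3.19% of all features higher and 3.07% lower. The same 4 genes had groups that did not overlap, beside 6.38% of features in that direction, and 0 members were lower without overlap, beside 5.78% of features. The genes were chosen with earlier results known, so these shares describe the list and do not test it.

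**Figure D1:**
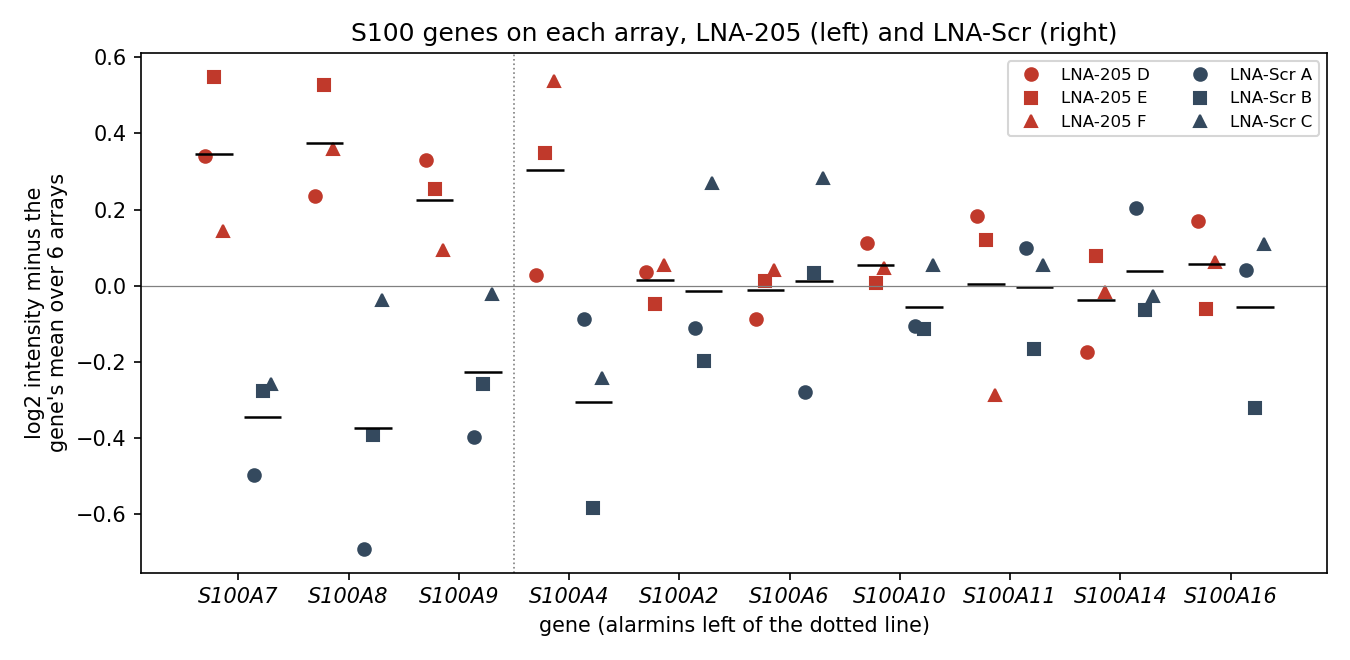
Normalized log2 intensity of each S100 gene (x axis) on each array, minus that gene's mean over the 6 arrays (y axis, log2), with LNA-205 arrays in red left of LNA-Scr arrays in dark blue, 1 symbol shape per replicate and a bar at each group mean (n = 3). The red points lie above all dark blue points for S100A7, S100A8, S100A9 and S100A4, and the groups overlap for the other 6 genes.

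S100A8 encodes the smaller chain of calprotectin, the S100A8 and S100A9 heterodimer that withholds zinc and manganese from microbes. Its log2 intensity was 11.04, 11.34 and 11.17 on LNA-205 arrays D, E and F, against 10.12, 10.42 and 10.77 on LNA-Scr arrays A, B and C. Each LNA-205 array was above each LNA-Scr array, with a gap of 0.27 between the closest values of the groups. The means were 11.18 ± 0.15 in LNA-205 and 10.43 ± 0.33 in LNA-Scr (SD, n = 3 each). The log2 difference was 0.75 (SE 0.17, 95% interval 0.35 to 1.14), 1.68-fold higher, with a limma adjusted p of 0.55. Its unadjusted p ranked 27 among the features with higher values in LNA-205.

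S100A9 encodes the other calprotectin chain. It stood at 12.04, 11.96 and 11.80 on LNA-205 arrays D, E and F, against 11.31, 11.45 and 11.68 on LNA-Scr arrays A, B and C. The groups did not overlap, but LNA-205 replicate F and LNA-Scr replicate C were only 0.12 apart. The means were 11.93 ± 0.12 in LNA-205 and 11.48 ± 0.19 in LNA-Scr (SD, n = 3 each). The log2 difference was 0.45 (SE 0.13, 95% interval 0.15 to 0.75), 1.37-fold higher, with a limma adjusted p of 0.691.

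Both calprotectin transcripts thus had higher values on the LNA-205 arrays, and the 95% intervals of their differences overlapped. The S100A8 value minus the S100A9 value was −0.99, −0.62 and −0.63 on LNA-205 arrays D, E and F, against −1.19, −1.03 and −0.91 on LNA-Scr arrays A, B and C. The group means of this log2 gap were −0.75 ± 0.21 in LNA-205 and −1.05 ± 0.14 in LNA-Scr (SD, n = 3 each), and the groups overlapped at LNA-205 replicate D. The difference between these means was 0.30. It was not tested, so unequal changes of the chains are not shown.

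S100A7 encodes psoriasin, a secreted antimicrobial protein of inflamed and differentiating skin. Its log2 intensity was 8.56, 8.77 and 8.36 on LNA-205 arrays D, E and F, against 7.72, 7.94 and 7.96 on LNA-Scr arrays A, B and C. The gap between the closest values of the groups was 0.40, the widest of the 10 members. The means were 8.57 ± 0.20 in LNA-205 and 7.88 ± 0.13 in LNA-Scr (SD, n = 3 each). The log2 difference was 0.69 (SE 0.13, 95% interval 0.38 to 0.9996), 1.61-fold higher, with a limma adjusted p of 0.426, the smallest of the 10. The probe was dim, with unnormalized intensities from 478.3 to 636.0 in LNA-205 and from 366.6 to 462.1 in LNA-Scr, so its difference depends on the background correction and was 0.43 without one.

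The same separation was present before any processing. Unnormalized S100A8 intensities were 2401, 2826 and 2272 on LNA-205 arrays D, E and F, against 1170, 1737 and 1862 on LNA-Scr arrays A, B and C. For S100A9 they were 4574, 4231 and 3417 on LNA-205 arrays D, E and F, against 2501, 3359 and 3348 on LNA-Scr arrays A, B and C. Of the 12 member probes, 4 had unnormalized intensities without overlap, 1 each for S100A7, S100A8, S100A9 and S100A4, and each was higher in LNA-205, while 0 were lower without overlap. Over all 13423 detected probes, 2.67% were higher and 2.82% lower without overlap on this scale. For these 4 probes the groups were thus separate without background correction or normalization between arrays.

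The control arrays differed among themselves in the alarmins. LNA-Scr replicate A was the lowest array for 3 of the 3 alarmins and LNA-Scr replicate B the second lowest for 3 of 3. The S100A8 value of LNA-Scr replicate A was 0.66 below that of LNA-Scr replicate C. Without LNA-Scr replicate A the S100A8 log2 difference was 0.59 and without LNA-Scr replicate C it was 0.92. LNA-Scr replicate A was also the array with the most probes above background, 14195, and LNA-Scr replicate C the one with the fewest, 12585. The part of this in the alarmin values was not tested.

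S100A8 and S100A9 are abundant in myeloid cells, so myeloid markers were read on the same arrays. Of 14 such markers 2 were measured, CD14 and CD68, and 12, among them PTPRC, ITGAM, MPO and CSF3R, were not above background on any array. CD14 differed by 0.31 (SE 0.17) and CD68 by 0.20 (SE 0.11), with limma adjusted p of 0.81 and 0.805. CD68 was higher in LNA-205 without overlap, as were 6.38% of all features, and CD14 overlapped between the groups. The log2 of their summed level ranged from 12.01 to 12.20 in LNA-205 and from 11.78 to 11.99 in LNA-Scr. That sum rests almost wholly on the CD68 probe, since the CD14 probe had means of only 7.93 in LNA-205 and 7.62 in LNA-Scr. Both markers are also expressed outside myeloid cells.

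S100A4, known as a metastasis-associated protein that binds non-muscle myosin and marks fibroblasts, was set with the abundant constitutive members by name. On these arrays it was close to background: its unnormalized intensities ran from 495.5 to 561.9 in LNA-205 and from 397.3 to 419.4 in LNA-Scr. Its log2 intensity was 8.19, 8.51 and 8.70 on LNA-205 arrays D, E and F, against 8.08, 7.58 and 7.92 on LNA-Scr arrays A, B and C. The groups did not overlap, with 0.11 between LNA-205 replicate D and LNA-Scr replicate A. The means were 8.47 ± 0.26 in LNA-205 and 7.86 ± 0.26 in LNA-Scr (SD, n = 3 each). The log2 difference was 0.61 (SE 0.17, 95% interval 0.21 to 1.01), 1.53-fold higher, with a limma adjusted p of 0.691, and it was 0.37 without background correction.

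A second S100A4 probe pointed the same way with overlap. It was above background on 3 of 3 LNA-205 arrays and on 1 of 3 LNA-Scr arrays. It thus met the detection filter of 3 arrays only through LNA-205, so its direction is partly set by that filter and is not separate support. It stood at 8.08, 7.74 and 7.41 on LNA-205 arrays D, E and F, against 6.79, 7.46 and 7.36 on LNA-Scr arrays A, B and C. With every detected probe as its own feature its log2 difference was 0.54 (SE 0.22, limma adjusted p = 0.80), and 0 of 13423 probes (0%) passed in that fit, where 6.21% had an unadjusted p under 0.05. LNA-Scr replicate A was the lowest array for this probe and the highest of the 3 LNA-Scr arrays for the first one, so the probes did not rank the control arrays alike.

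**Figure D2:**
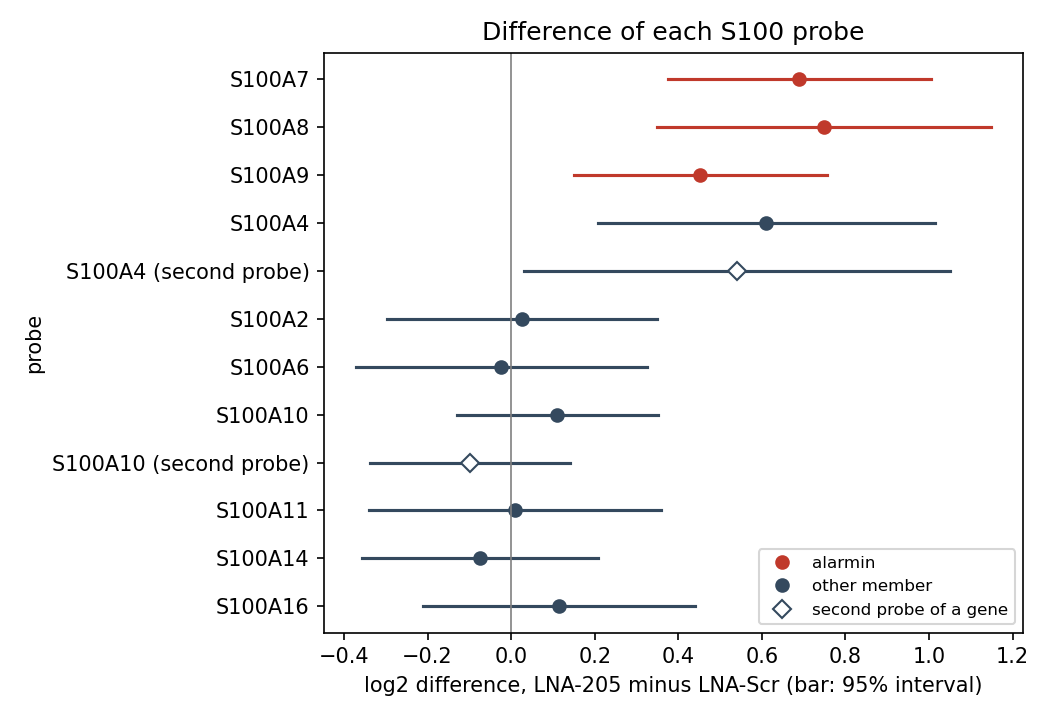
Log2 difference of each of the 12 S100 probes, LNA-205 minus LNA-Scr (x axis), with 95% limma intervals from the fit in which each detected probe is its own feature; alarmins are red, other members dark blue, and open diamonds are second probes. The intervals of the 3 alarmins and of both S100A4 probes lie above 0, and the intervals of the other 7 probes include 0. The second S100A4 probe passed the detection filter only through the LNA-205 arrays.

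The 6 remaining members did not separate the groups. Their log2 differences lay between −0.08 and 0.11, with a median of 0.02, SE from 0.10 to 0.15 and limma adjusted p from 0.894 to 0.997. Their 95% intervals all included 0 and together spanned −0.37 to 0.44, so a change as large as that of S100A8 (0.75) lay outside each of them. Smaller changes may go undetected with 3 arrays per group. The unnormalized intensities of their 7 probes ran from 2911 to 58961, well above background.

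S100A2, a nuclear S100 protein of basal epithelial cells, stood at 13.13, 13.04 and 13.15 on LNA-205 arrays D, E and F, against 12.98, 12.89 and 13.36 on LNA-Scr arrays A, B and C. The LNA-205 values lay inside the LNA-Scr range, for a log2 difference of 0.03 (SE 0.14). S100A6, or calcyclin, which is raised in proliferating cells, had 13.90, 14.004 and 14.03 on LNA-205 arrays D, E and F, against 13.71, 14.02 and 14.28 on LNA-Scr arrays A, B and C. It differed by −0.02 (SE 0.15). For both genes the SD was larger among LNA-Scr arrays (0.25 and 0.28) than among LNA-205 arrays (0.05 and 0.07), and LNA-Scr replicate C was the highest array.

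S100A10, or p11, forms a tetramer with annexin A2 at the plasma membrane and is unusual in the family for not needing calcium. Its brighter probe stood at 15.86, 15.75 and 15.79 on LNA-205 arrays D, E and F, against 15.64, 15.63 and 15.80 on LNA-Scr arrays A, B and C. The groups overlapped through LNA-Scr replicate C, and the log2 difference was 0.11 (SE 0.10). The second S100A10 probe gave −0.10 (SE 0.10), with 15.22, 15.18 and 15.14 on LNA-205 arrays D, E and F, against 15.17, 15.31 and 15.36 on LNA-Scr arrays A, B and C. The probes thus gave opposite signs, and both 95% intervals included 0. The brighter probe had unnormalized intensities from 51217 to 58961, where the brightest probe of an array read between 71172 and 73190, and compression near the top of the scale was not tested.

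S100A11, or calgizzarin, a partner of annexin A1, had 13.60, 13.54 and 13.13 on LNA-205 arrays D, E and F, against 13.52, 13.26 and 13.48 on LNA-Scr arrays A, B and C. LNA-205 replicate F was the lowest of all 6 arrays, and the log2 difference was 0.01 (SE 0.15). S100A14, an epithelial family member, had 11.38, 11.63 and 11.53 on LNA-205 arrays D, E and F, against 11.75, 11.49 and 11.53 on LNA-Scr arrays A, B and C, and differed by −0.08 (SE 0.12). S100A16, widely expressed in epithelia and neighbour of S100A14 on the chromosome, had 14.16, 13.92 and 14.05 on LNA-205 arrays D, E and F, against 14.03, 13.66 and 14.09 on LNA-Scr arrays A, B and C. It differed by 0.11 (SE 0.14). For S100A2, S100A6, S100A11, S100A14 and S100A16 the sign of the difference turned under at least 1 alternative, and for S100A10 it did not with the brighter probe.

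Set side by side, the alarmins had a median log2 difference of 0.69 and the 7 other members one of 0.03, beside a median of −0.0008 over all features. Each gene was centred on its 6-array mean and the genes of a class were averaged on each array. The alarmin mean was 0.30, 0.44 and 0.20 on LNA-205 arrays D, E and F, against −0.53, −0.31 and −0.11 on LNA-Scr arrays A, B and C. The mean of the other members was 0.04, 0.07 and 0.06 on LNA-205 arrays D, E and F, against −0.03, −0.20 and 0.07 on LNA-Scr arrays A, B and C. Centring on 3 arrays of each group makes the group means of such a profile equal in size and opposite in sign, so the change of sign between the groups is set by the centring. The gap between the classes averaged 0.26 ± 0.12 in LNA-205 and −0.26 ± 0.21 in LNA-Scr (SD, n = 3 each), a difference of 0.52, given as a description without a test.

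**Figure D3:**
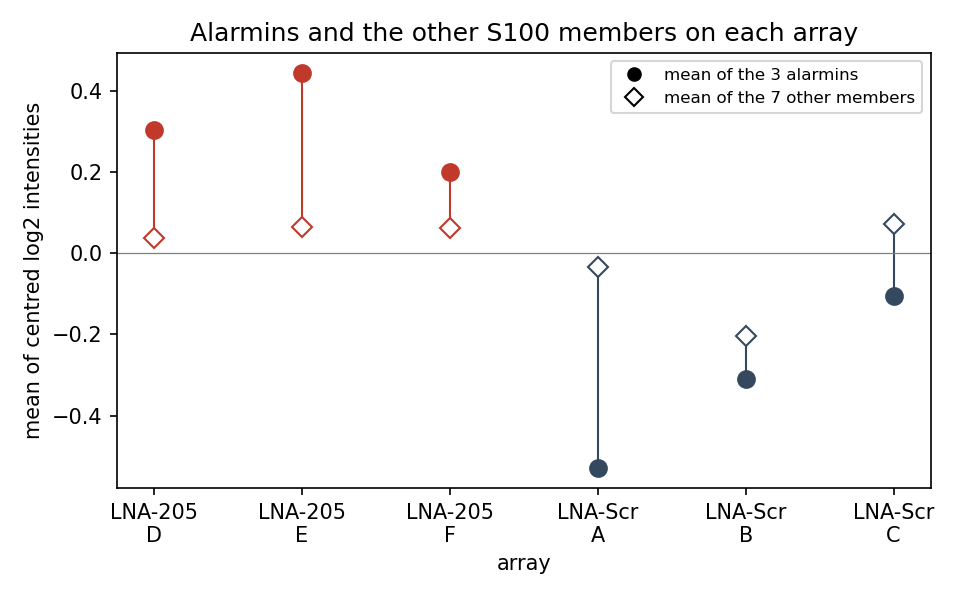
Mean of the centred log2 intensities (y axis) of the 3 alarmins (filled circles) and of the 7 other members (open diamonds) on each array (x axis), LNA-205 in red and LNA-Scr in dark blue, joined by a line per array. The gap between circle and diamond is widest on LNA-Scr replicate A, and the position of 0 is set by the centring.

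The promoters of the 4 genes whose groups did not overlap are shown because these genes had higher values on the same arrays. Each sequence holds the 250 bases before a RefSeq transcript start (GRCh38.p14), read along the gene. Capitals mark TATAAA, the core of the TATA box, in the last 40 bases on the gene's strand, and TTNNGNAA, a loose C/EBP pattern, on either strand. For S100A8 the middle of the 3 listed starts is shown.
S100A7 promoter, chr1:153460652-153460901 (- strand): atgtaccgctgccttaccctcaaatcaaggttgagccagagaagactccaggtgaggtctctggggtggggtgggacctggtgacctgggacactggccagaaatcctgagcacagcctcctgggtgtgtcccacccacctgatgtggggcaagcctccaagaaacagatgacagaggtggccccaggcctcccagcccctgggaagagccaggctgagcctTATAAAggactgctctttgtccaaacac
S100A8 promoter, chr1:153391074-153391323 (- strand): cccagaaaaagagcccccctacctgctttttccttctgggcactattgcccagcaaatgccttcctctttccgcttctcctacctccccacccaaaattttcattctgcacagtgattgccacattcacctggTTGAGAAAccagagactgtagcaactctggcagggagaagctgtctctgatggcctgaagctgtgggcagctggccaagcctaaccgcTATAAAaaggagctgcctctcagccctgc
S100A9 promoter, chr1:153357604-153357853 (+ strand): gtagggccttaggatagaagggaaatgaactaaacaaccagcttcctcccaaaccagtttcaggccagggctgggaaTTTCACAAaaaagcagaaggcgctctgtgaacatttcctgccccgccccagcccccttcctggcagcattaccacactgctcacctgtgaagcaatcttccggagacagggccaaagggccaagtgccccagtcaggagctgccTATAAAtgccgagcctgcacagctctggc
S100A4 promoter, chr1:153545807-153546056 (- strand): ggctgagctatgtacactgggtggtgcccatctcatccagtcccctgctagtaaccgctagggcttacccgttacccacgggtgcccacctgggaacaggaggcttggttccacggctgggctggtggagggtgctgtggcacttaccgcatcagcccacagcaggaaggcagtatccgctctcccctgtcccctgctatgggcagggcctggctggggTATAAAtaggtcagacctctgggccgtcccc

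TATAAA began 28 bases before the start in S100A7, 29 in S100A8 and S100A9, and 31 in S100A4. No listed start of the other 6 members held it in that window, nor did the other 2 S100A8 starts, while 2.44% of 35116 human promoter entries did. S100A6 and S100A14, whose groups overlapped, held TATAAG there, which differs from TATAAA only in its last letter. The split of the members thus holds for the exact letters and not for near matches. The motif TATAAA was chosen after the sequences were seen, and the box below means these exact letters. Among other tested genes, 168 had the box at a listed start, and in 10.7% of these the LNA-205 values were higher without overlap, beside 6.69% of 7260 genes without the box. Their median log2 differences were 0.03 with the box and −0.0026 without it. The share with the box rests on 18 genes. The 2 shares were not compared by a test, and lower values without overlap were not counted for these sets, so no link between the box and the difference is drawn. The C/EBP pattern stood before starts of S100A8, S100A9, S100A6, S100A11 and S100A16 and in 33.2% of all entries. The AP-1 motif TGANTCA (both strands) stood before 1 start of S100A2 only, with 6.57% of all entries. A match of letters is a description and not a binding site.

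Other S100 genes were mostly below detection. Of 11 further family members with a probe, 2 were measured, and S100A1 was above background on 2 of 6 arrays. S100A3, a cysteine-rich family member known from hair follicles, had 11.81, 11.81 and 12.13 on LNA-205 arrays D, E and F, against 11.41, 11.55 and 11.69 on LNA-Scr arrays A, B and C. Its groups did not overlap, and its log2 difference was 0.37 (SE 0.13, limma adjusted p = 0.737). S100A13, which takes part in the release of signal proteins without a leader sequence, differed by −0.02 (SE 0.10). Its other detected probes gave −0.26 (SE 0.23) and 0.10 (SE 0.15).

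S100A12 and S100A7A, which lie between the alarmin genes on the chromosome, were not above background on any array. S100A7A and S100A7 share 241 of the 250 bases before their starts. Unnormalized S100A7A intensities were 164.6 to 167.8 in LNA-205 and 175.9 to 185.4 in LNA-Scr, and no level is given for it. Both probes of S100A7L2, a related pseudogene, were also not above background. Cross-hybridisation between family members was not tested, since probe sequences were not used here.

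The fused S100 genes, which join an S100 domain to long repeats in the outer layers of skin, include FLG, HRNR and RPTN. None of the 7 passed the detection filter, and 6 were not above background on any array, with CRNN above it on 1.

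Intracellular partners of S100 proteins did not pass the test either way. The list held 12 genes and 9 passed the detection filter, of which 7 had differences above 0 (49.8% of all features did) and 2 below, with a median log2 difference of 0.07 and 0 past the threshold. Among them, 0 had an unadjusted limma p under 0.05, beside 3.19% of all features higher and 3.07% lower. Without overlap, 1 was higher, SUGT1, and 0 were lower, beside 6.38% and 5.78% of all features. The genes with the smallest p were SUGT1, a co-chaperone, at 0.16 (SE 0.11), ANXA11, an annexin, at 0.10 (SE 0.14) and AHNAK, a giant scaffold that binds S100A10 with annexin A2, at 0.07 (SE 0.10). Other detected probes gave −0.06 for ANXA11 and −0.31 and −0.16 for AHNAK. ANXA2, the partner of S100A10, differed by −0.08 (SE 0.11), and ANXA1, the partner of S100A11, by −0.02 (SE 0.12).

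Receptors for secreted S100 proteins were measured for 5 of 11 genes, 2 with higher and 3 with lower values, a median log2 difference of −0.0079 and 0 past the threshold. BSG and EGFR were lower without overlap, 2 genes, and 0 were higher without overlap, beside 5.78% and 6.38% of all features. At an unadjusted limma p under 0.05, 1 was lower, BSG, and 0 higher, beside 3.07% and 3.19% of all features. BSG (basigin), a receptor for S100A9, differed by −0.26 (SE 0.11, limma adjusted p = 0.78). EGFR differed by −0.14 (SE 0.10), while its other detected probe gave 0.03, and MYD88, the adaptor of Toll-like receptors, by 0.20 (SE 0.19). NPTN (neuroplastin), a receptor for S100A8, differed by 0.11 (SE 0.13). AGER and TLR4, the receptors most often named for calprotectin, were not above background on any array.

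Other EF-hand calcium sensors were measured for 10 of 14 genes, 5 with higher and 5 with lower values, a median log2 difference of 0.03 and 0 past the threshold. At an unadjusted limma p under 0.05, 2 were higher and 0 lower, beside 3.19% and 3.07% of all features. The groups did not overlap for 2 genes that were higher, CALU and CALML3, and for 2 that were lower, CAPNS1 and EFHD2, beside 6.38% and 5.78% of all features. CALU (calumenin), of the secretory pathway, differed by 0.30 (SE 0.11, limma adjusted p = 0.733), and CALML3, a calmodulin-like protein of stratified epithelium, by 0.29 (SE 0.12, limma adjusted p = 0.778). CAPNS1, the small calpain subunit, differed by −0.19 (SE 0.10), and a second detected probe gave −0.18. EFHD2, an EF-hand protein, differed by −0.19 (SE 0.11).

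The 5 genes whose profile over the 6 arrays was most like the mean alarmin profile were TAF1, MXD3, KBTBD3, MARCKS and FERMT2. Likeness was the root mean square difference between centred log2 profiles, which was 0.10 for TAF1, MXD3 and KBTBD3, 0.11 for MARCKS and 0.13 for FERMT2. The alarmins themselves, which make up that mean, stood at 0.08 for S100A7 and 0.11 for S100A8 and S100A9. TAF1 encodes a subunit of the general transcription factor TFIID, MXD3 a partner of MAX, MARCKS a protein kinase C substrate at the membrane and FERMT2 the integrin activator kindlin-2. Their log2 differences were 0.48 (SE 0.16) for TAF1, 0.61 (SE 0.15) for MXD3, 0.66 (SE 0.13) for KBTBD3, 0.50 (SE 0.12) for MARCKS and 0.70 (SE 0.10) for FERMT2. None passed the test, with limma adjusted p between 0.35 and 0.691. Because the genes were picked by likeness on these same arrays, the sign and rough size of these differences follow from the choice.

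The alarmin differences were followed through 14 alternatives, 8 of processing and 6 with 1 array left out. S100A8 ranged from 0.59 to 0.92, S100A9 from 0.37 to 0.55, S100A7 from 0.43 to 0.79 and S100A4 from 0.37 to 0.75. The 4 alternatives that change the values of all members are no background correction, an offset of 50, median scaling and the authors' processed values, and under these the 4 genes were higher in LNA-205 without overlap. The authors' values kept the probe order of the unnormalized values on each array (Spearman correlation 1) and equalled them for all 48799 probes of LNA-205 replicate E. They are therefore close to the alternative without background correction and add little as a separate check. The alternatives other than these 4 leave out 1 array, which cannot create overlap, or change only the detection filter or the choice and pooling of probes. In none of the 14 did an S100 gene pass the test. The lowest limma adjusted p over the alternatives was 0.277 for S100A8, 0.422 for S100A7, 0.459 for S100A4 and 0.489 for S100A9.

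**Figure D4:**
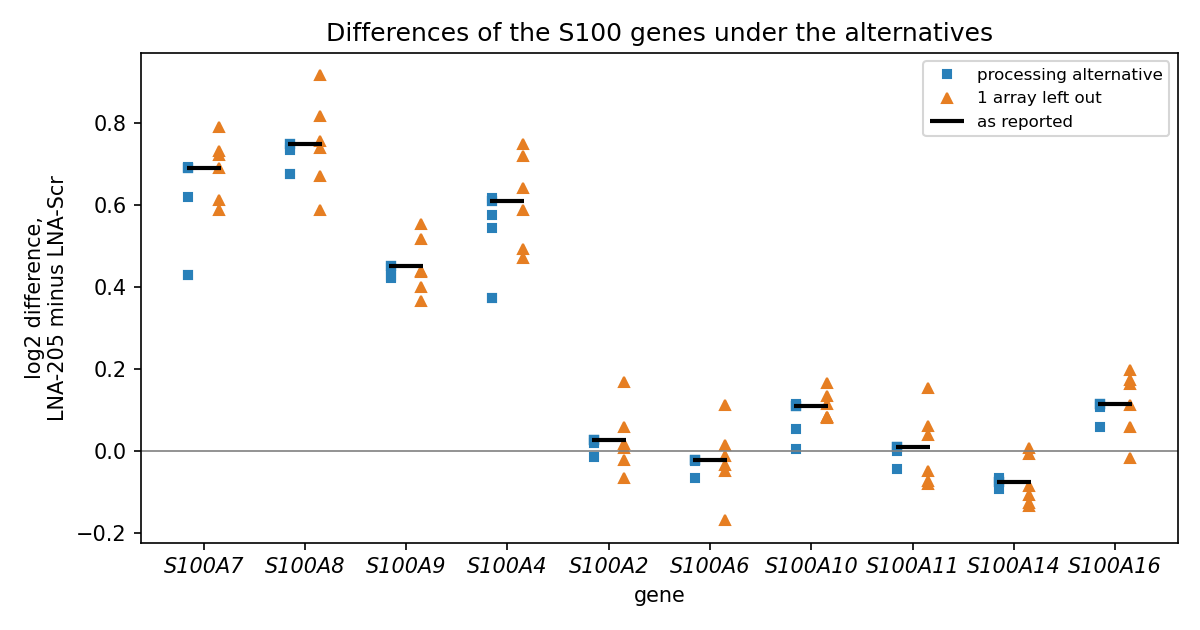
Log2 difference of each S100 gene, LNA-205 minus LNA-Scr (y axis), as reported (black bar), under 8 processing alternatives (blue squares) and with 1 of the 6 arrays left out (orange triangles). S100A7, S100A8, S100A9 and S100A4 stay between 0.37 and 0.92, and the other 6 genes lie on both sides of 0 or close to it.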

How the data were processed

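The sample titles gave the groups and the replicate letters. The deposited unnormalized values are log2 intensities per probe without background subtraction, as judged from the values, and the deposited detection p-values, per the file headers, stand beside each array. The authors' processed log2 values were an alternative, and their method is not stated in the labels used here. The lumi package is named per the submitters' processing notes, without a role.

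Of 48803 rows, 48799 held values. Background was corrected and arrays normalized with limma's neqc (offset 16, quantile, log2), and 13423 probes with a detection p under 0.01 on at least 3 of 6 arrays were kept. Symbols came from a platform annotation updated through GRCh38.p14 RefSeq identifiers. The brightest probe per gene gave 10803 features, tested with limma 3.58.1 in R 4.3.3 (lmFit and eBayes, two-sided, Benjamini-Hochberg over all features, threshold 0.05). The fit was tested on simulated data. Alternatives varied background, offset, scaling, filter, probe choice, processed values and arrays. Precision is limited by 3 arrays per group.

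The members and gene lists were chosen with earlier results of these data known. The text names the 10 members, from each of 5 lists the called genes or the 3 with the smallest p, and the 5 genes most like the alarmins. Named after their values were seen were S100A1, S100A12, S100A7A, S100A7L2, S100P, S100Z, ANXA1, ANXA2, NPTN, AGER, TLR4, EFHD2, the fused S100 genes and the marker genes.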

Additional observations from a re-analysis of the deposited data

How the results depend on the processing

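No paired analysis was possible because no replicate letter occurs in both groups. No S100 member passed the limma test as reported or under any of the 14 alternatives; at an unadjusted limma p under 0.05, 4 did as reported. The number of features called over the whole array was 1 as reported and 0 without a detection filter, with all detected probes entered singly or averaged per gene, and 0 with any 1 array left out. The median log2 difference of the alarmins was 0.43 without background correction and 0.43 with the authors' processed values, set in both cases by the dim S100A7 probe. That of the 7 other members ran from −0.0179 to 0.17 with 1 array left out, the highest without LNA-Scr replicate C. The gap between the classes ran from 0.40 to 0.60 over the alternatives.

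Signs turned for members near 0. S100A2 gave −0.0157 with median scaling, −0.0218 without LNA-Scr replicate A and −0.0658 without LNA-Scr replicate B (highest 0.17 with 1 array left out). S100A6 gave 0.0154 without LNA-205 replicate D and 0.11 without LNA-Scr replicate C (lowest −0.17). S100A11 gave −0.0444 with median scaling and −0.0005 with the authors' values. It gave −0.0804 without LNA-205 replicate D, −0.0486 without LNA-205 replicate E and −0.0724 without LNA-Scr replicate B (highest 0.155). S100A14 gave 0.0072 without LNA-Scr replicate A (lowest −0.13), and S100A16 gave −0.0179 without LNA-Scr replicate B (highest 0.20). Leaving out LNA-205 replicate F removed the overlap between groups for S100A11, and leaving out LNA-Scr replicate C did so for S100A2 and S100A10. The cause was not tested.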

Other observations

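The probe for S100P, a family member induced in several carcinomas, was not above background on any array. Its unnormalized intensities were 275.9, 269.0 and 265.0 on LNA-205 arrays D, E and F, against 220.8, 236.3 and 232.7 on LNA-Scr arrays A, B and C, without overlap. No fold is given, because both groups were below the detection threshold. Other undetected family probes were lower in LNA-205 without overlap, among them that of S100A7A. A probe of S100Z did so too, with 187.3, 193.1 and 184.6 on LNA-205 arrays D, E and F, against 205.6, 206.5 and 203.1 on LNA-Scr arrays A, B and C. The share of all undetected probes without overlap was not counted, so no direction is drawn from these probes.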
